A study of Mus musculus with 6 samples.

Results

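The 33 genes described here carry pyruvate into the mitochondrion, convert it to acetyl-CoA, run the tricarboxylic acid (TCA) cycle and refill or drain the cycle through glutamate, malate, aspartate and citrate. They were chosen by name from the gene table of the study, and all 33 were found among its 54532 genes. RNA-seq was run on endothelial cells, the cells that line blood vessels, sorted from the brains of mice aged 12 to 16 weeks. Every mouse in both groups carried Df(h22q11)/+, a heterozygous deletion of the region that matches human 22q11.2, and wild-type mice were not analysed here. The untreated group (2 female libraries, F_1 and F_2, and 1 male library, M_1) ate irradiated base chow for 4 weeks. The bezafibrate group (1 female library, F_1, and 2 male libraries, M_1 and M_2) ate chow with 0.5% bezafibrate, a fibrate drug that activates PPAR nuclear receptors, for the same time. Each library pooled 3 brains of mice alike in sex, genotype and chow. Live cells were gated as CD31+, CD45- and PDGFRb-, a gate that selects against leukocytes and pericytes.

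Pyruvate from glycolysis crosses the inner mitochondrial membrane through a carrier made of Mpc1 and Mpc2. The pyruvate dehydrogenase (PDH) complex turns it into acetyl-CoA, and kinases that phosphorylate the complex switch it off while phosphatases switch it on again. Citrate synthase joins acetyl-CoA to oxaloacetate, the cycle oxidises the product back to oxaloacetate, and side reactions named anaplerosis replace the intermediates that are withdrawn for synthesis. Brain endothelial cells are known for strong glycolysis and, at the blood-brain barrier, for a high content of mitochondria.

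Values are FPKM, fragments per kilobase of gene length scaled to library size, and differences are on the scale of log2(FPKM + 1), bezafibrate minus untreated. The libraries held 16858130 to 20228619 reads recovered from the FPKM, and in each of them 11060 to 11387 genes reached 1 FPKM. On the first principal component (39.3% of the variance), untreated M_1 at 30.3 and bezafibrate F_1 at 24.4 lay away from the rest, which ran from -22.6 to 1.62. All 8 endothelial markers passed the filter, with a summed level of 7486 to 10824 FPKM untreated and 6606 to 10360 FPKM with bezafibrate. Oligodendrocyte markers summed to 78.9 to 133.9 and 76.4 to 85.1 FPKM, astrocyte markers to 38.1 to 57.6 and 24.6 to 45.9 FPKM, and neuronal markers, of which 4 of 6 stayed under 1 FPKM in every library, to 12.8 to 18.5 and 13.4 to 16.5 FPKM. The 6 choroid plexus and ependymal markers summed to 359 to 402 FPKM untreated and 407 to 938 FPKM with bezafibrate, and most of that sum was Ttr. Ttr had 349 to 389 FPKM in untreated and 397 to 919 FPKM in the other libraries, ranges that did not overlap. The other 5 markers summed to 9.34 to 13.0 and 10.2 to 18.7 FPKM, sums that overlapped, but Clic6 alone did not (1.73 to 2.12 and 2.51 to 4.72 FPKM). In the other lists the groups did not overlap for Mbp (11.5 to 14.9 and 8.45 to 9.35 FPKM), Mobp (5.84 to 7.15 and 3.95 to 4.76 FPKM), Tmem119 and Cx3cr1. The last 2 were low, with highest values of 1.61 and 0.873 FPKM. Of all genes tested, 8.42% did not overlap. Mural cell markers summed to 184 to 258 FPKM untreated and 167 to 237 FPKM with bezafibrate, so that RNA of these markers remained after the gate. That sum was above those of the oligodendrocyte and of the astrocyte markers in every library. The sums of mural, microglial and erythrocyte markers each overlapped between the groups, and no marker of any list was at 0 in all libraries. The part of these other cells in the values below was not tested, and in bulk RNA fewer cells of a type and less RNA per cell cannot be told apart.

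The pathway was expressed throughout, and none of its 33 members passed the test for a difference between bezafibrate and untreated libraries. All 33 passed the filter on low values, which asked for 1 FPKM in 3 or more libraries. None of the 33 was called by limma at an adjusted p under 0.05, where 1 of the 11277 genes tested, or 0.00887%, was called. None had an unadjusted p under 0.05, against 472 of all genes tested, or 4.19%, and limma-voom on the recovered reads also called none and gave none under 0.05. The smallest adjusted p among the members was 0.999 and the smallest unadjusted p was 0.122. Without untreated M_1 and bezafibrate F_1, limma again called none (smallest adjusted p = 0.581). That fit set female untreated pools against male bezafibrate pools, so treatment and sex cannot be told apart in it. The difference was above 0 for 14 members and below 0 for 19. The median over the members was -0.01, with a middle range of -0.09 to 0.07, and the median over all genes tested was also -0.01, with a middle range of -0.14 to 0.13.

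The absence of a call does not show that the levels were equal, so the 95% intervals of the differences set what these libraries could have missed. Those intervals covered 0 for all 33 members and lay within 1 log2 unit of 0 for all 33. For 18 members they lay within 0.5. The median reach of an interval to either side was 0.372 for the members and 0.445 for all genes tested. A difference inside that reach cannot be told from 0 with 3 pools in each group. The untreated and bezafibrate values did not overlap for 1 member, Idh3g, against 950 of all genes tested, or 8.42%. A count of 1 in 33 is no more than that background share, and no result about the members is read from it.

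**Figure D1:**
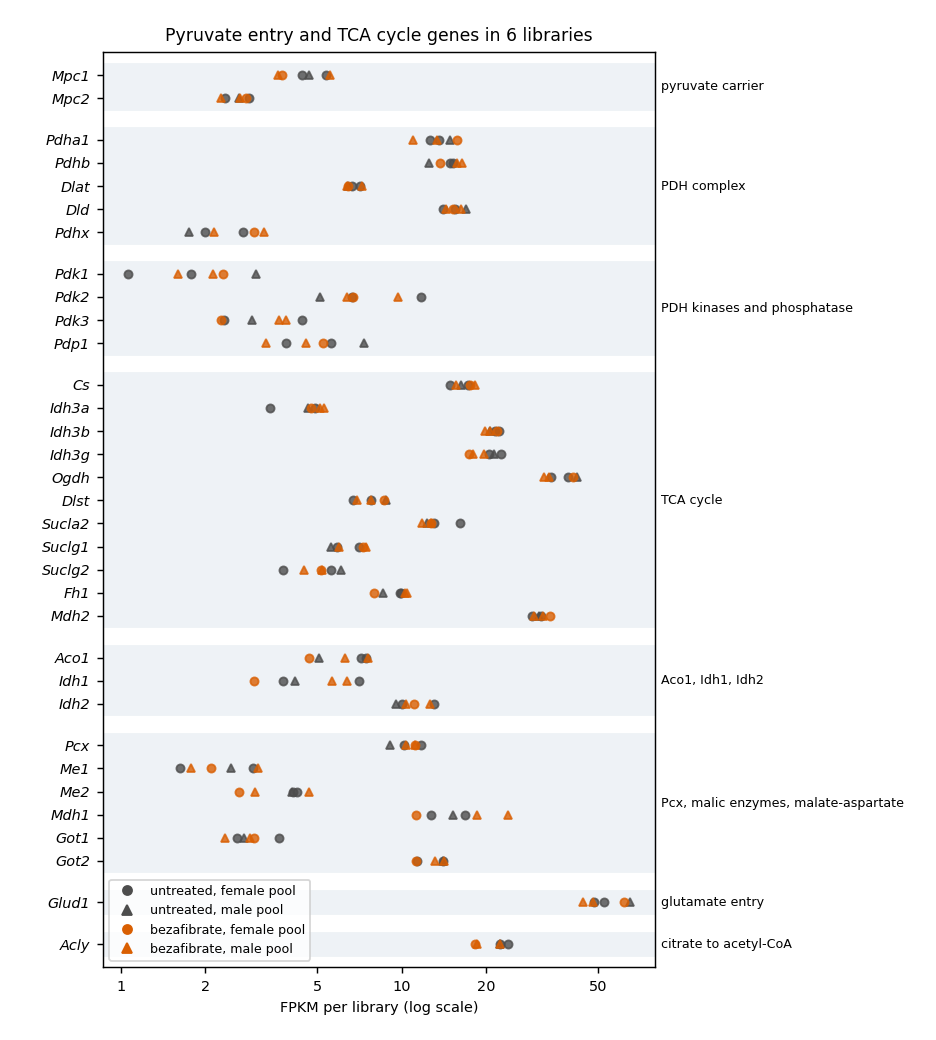
FPKM (log axis) of each of the 33 genes in the 6 libraries, grouped by role. Grey symbols are untreated and orange symbols bezafibrate libraries, with circles for female and triangles for male pools. The colours are mixed in every row except Idh3g, and the rows span from 1.06 FPKM in the lowest library of Pdk1 to 65.0 FPKM in the highest library of Glud1.

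**Figure D2:**
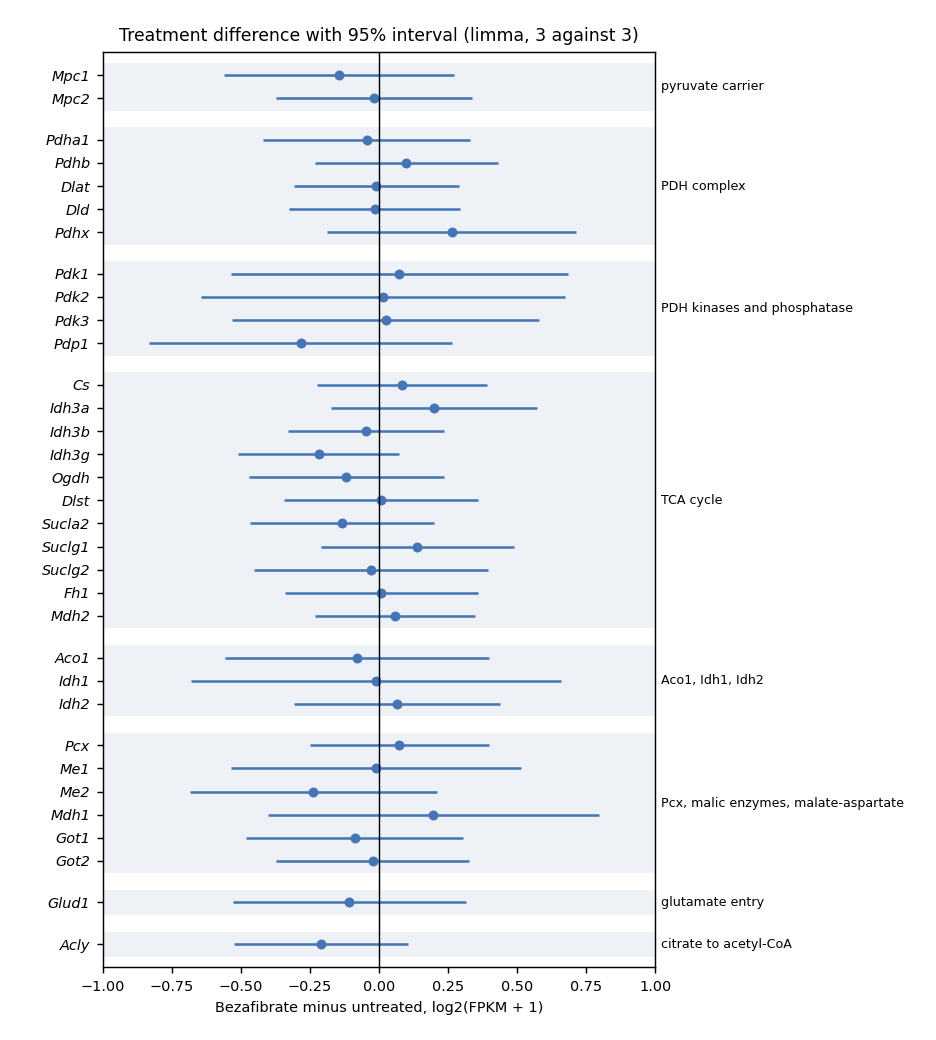
Difference between bezafibrate and untreated libraries on the log2(FPKM + 1) scale for each of the 33 genes (points), with the 95% interval from limma (lines, 3 against 3 libraries). Every interval crosses 0, and the points run from -0.28 for Pdp1 to 0.26 for Pdhx.

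Neither subunit of the mitochondrial pyruvate carrier was called. Mpc1 (chromosome 17, 8282904 to 8297661, plus strand, GRCm38) had 4.42, 5.36 and 4.66 FPKM in untreated F_1, F_2 and M_1, against 3.74, 3.64 and 5.57 FPKM in bezafibrate F_1, M_1 and M_2. The highest and the lowest of its values were both with bezafibrate. The group means were 4.81 ± 0.492 and 4.31 ± 1.09 FPKM (SD, n = 3 each), with a difference of -0.15 (SE 0.179). Mpc2, its partner in the carrier, had 2.36, 2.87 and 2.63 FPKM untreated and 2.80, 2.27 and 2.64 FPKM with bezafibrate, in the same order, and the groups overlapped. Its difference was -0.02 (SE 0.152).

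The Mpc1 value carries a limit that the sequence shows. Mpc1-ps is a processed pseudogene of 330 bases on chromosome 12 (110858565 to 110858894, minus strand, GRCm38), inside Zfp839 on the other strand and clear of its exons. Over those 330 bases it differs from the Mpc1 transcript at 1 base, so that a read of 75 bases inside this stretch that misses the base cannot be assigned to either gene by sequence. The first 180 bases of the shared stretch are printed below from the GENCODE transcripts, in lower case with the 1 base that differs in capitals, because all reads that could tell the genes apart by sequence there must cover that base.
Mpc1: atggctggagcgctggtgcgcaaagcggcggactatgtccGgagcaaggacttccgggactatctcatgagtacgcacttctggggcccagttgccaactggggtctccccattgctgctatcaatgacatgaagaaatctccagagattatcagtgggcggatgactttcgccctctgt
Mpc1-ps: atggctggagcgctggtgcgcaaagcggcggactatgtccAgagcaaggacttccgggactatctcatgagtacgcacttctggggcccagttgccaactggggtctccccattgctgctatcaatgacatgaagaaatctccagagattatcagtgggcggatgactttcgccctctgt
The printed stretch covers bases 130 to 309 of the 958-base Mpc1 transcript and bases 1 to 180 of Mpc1-ps (chr12:110858715-110858894, minus strand).

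The deposited table assigned about as many reads to the pseudogene as to the gene. Mpc1 had 185, 199 and 180 reads in untreated F_1, F_2 and M_1, against 140, 161 and 218 reads in bezafibrate F_1, M_1 and M_2. Mpc1-ps had 197, 165 and 296 reads in the untreated and 231, 209 and 178 reads in the bezafibrate libraries, in the same order. The pseudogene took 45.0% (bezafibrate M_2) to 62.3% (bezafibrate F_1) of the reads of both, and untreated M_1 was close to the upper end at 62.2%. Because Mpc1-ps is short, the same reads gave it 28.1 to 48.3 FPKM. Both genes together had 21.7 ± 3.49 reads per 1000000 of the library size behind the FPKM in untreated and 19.7 ± 2.0 with bezafibrate (SD, n = 3 each). The difference of the sum was -0.13 on the log2 scale, a comparison added after the data were seen. An exact permutation test on the reads per 1000000, without log2, gave p = 0.6 (two-sided, where 3 against 3 libraries cannot go below 0.1). On the log2 scale Mpc1 alone differed by -0.18 (exact permutation p = 0.6, again on the reads per 1000000 without log2).

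**Figure D3:**
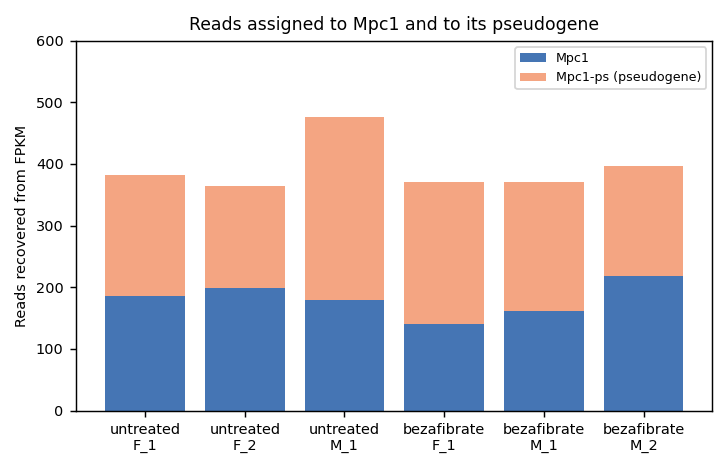
Reads recovered from the FPKM and assigned to Mpc1 (blue) and to its processed pseudogene Mpc1-ps (orange, stacked on top), for each of the 6 libraries. The pseudogene takes 45.0% to 62.3% of each bar, and the whole bars run from 364 to 476 reads.

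The 5 genes of the PDH complex spanned 2.48 to 15.4 FPKM in their means over the 6 libraries, and none was called. Pdha1, the alpha subunit of the E1 component, had 13.6, 12.6 and 14.9 FPKM in untreated F_1, F_2, M_1 and 15.7, 11.01 and 13.3 FPKM in bezafibrate F_1, M_1 and M_2. Pdhb, the beta subunit of E1, had 15.2, 14.9 and 12.5 FPKM untreated and 13.7, 15.7 and 16.4 FPKM with bezafibrate. The E1 subunits ran opposite ways in the libraries that stood apart: these held the highest values of Pdha1 and the lowest of Pdhb. Dlat, the E2 acetyltransferase that forms the core, had 6.66, 7.12 and 6.42 FPKM untreated and 6.46, 7.22 and 6.37 FPKM with bezafibrate. Dld, the E3 dehydrogenase shared with the 2-oxoglutarate complex, had 15.5, 14.0 and 17.0 FPKM untreated and 15.2, 16.2 and 14.4 FPKM with bezafibrate. Dlat and Dld were the steadiest of the complex, with a highest value 1.13 and 1.21 times the lowest.

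Pdhx, the protein that anchors E3 to the core, was the least abundant member of the complex. It had 2.0, 2.73 and 1.75 FPKM untreated and 2.98, 3.24 and 2.15 FPKM with bezafibrate. Bezafibrate F_1 and M_1 lay above every untreated library and bezafibrate M_2 lay among them. The means were 2.16 ± 0.506 and 2.79 ± 0.569 FPKM (SD, n = 3 each). The difference, 0.26 (SE 0.194, interval -0.19 to 0.71), was the highest of the 33. It was about as large as the spread between pools (within-group SD 0.225 on the same scale) and was not called.

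The PDH kinases and the phosphatase varied more between pools than the complex itself, with the highest value 1.94 to 2.85 times the lowest, against 1.13 to 1.85 times for the complex. Pdk1, a kinase known as a target of hypoxia signalling, had 1.78, 1.06 and 3.02 FPKM untreated and 2.31, 1.60 and 2.12 FPKM with bezafibrate. Both extremes of Pdk1 were untreated pools, and its highest value was 2.85 times its lowest, the widest span among the 33. Pdk2, the most widely expressed kinase of the family, had 11.7, 6.64 and 5.11 FPKM untreated and 6.73, 6.38 and 9.69 FPKM with bezafibrate. Pdk3 had 4.41, 2.32 and 2.92 FPKM untreated and 2.28, 3.86 and 3.66 FPKM with bezafibrate. The untreated pools enclosed the bezafibrate pools for Pdk2, and for Pdk3 the groups were interleaved. The differences of the 3 kinases were 0.07 (SE 0.262), 0.01 (SE 0.283) and 0.02 (SE 0.239), and the interval of Pdk2 ran from -0.64 to 0.67.

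Pdp1, the phosphatase that reactivates the complex, had 3.86, 5.62 and 7.35 FPKM untreated and 5.24, 3.29 and 4.57 FPKM with bezafibrate. The highest value was that of untreated M_1 and the lowest that of bezafibrate M_1. The means were 5.61 ± 1.74 and 4.36 ± 0.992 FPKM (SD, n = 3 each), and the difference of -0.28 (SE 0.236) was the lowest of the 33 and was not called. It was -0.10 without untreated M_1 and -0.13 without bezafibrate M_1, and -0.49 without untreated F_1, so that its size rested on single pools.

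Pdk4, a kinase of the same family that PPAR receptors are known to induce in other tissues, was not among the 33. By the table's lengths it had a mean of 13.1 FPKM, against 7.70 for Pdk2, 3.24 for Pdk3 and 1.98 for Pdk1, and it exceeded Pdk2 in all 6 libraries. Per base of the principal transcript the means were 13.2 FPKM for Pdk4 and 10.8 FPKM for Pdk2, and Pdk4 was the higher in 3 of the 6 libraries. It had 12.9, 14.3 and 21.5 FPKM in untreated F_1, F_2, M_1 and 12.3, 7.34 and 10.3 FPKM in bezafibrate F_1, M_1 and M_2, so that every bezafibrate library lay below every untreated one. The difference was -0.64 (SE 0.242, unadjusted p = 0.0300) and was not called after adjustment over all genes (limma adjusted p = 0.999).

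The 11 genes of the cycle proper included the steadiest members, and none of the 11 was called. The differences of these genes were above 0 for 6 and below 0 for 5, and ran from -0.22 to 0.20. Citrate synthase, Cs, which makes citrate from acetyl-CoA and oxaloacetate, had 16.1 ± 1.17 FPKM untreated and 17.1 ± 1.37 with bezafibrate (SD, n = 3 each, as in all such pairs below). Idh3a, Idh3b and Idh3g encode the NAD-dependent isocitrate dehydrogenase of the mitochondrion. Its catalytic alpha subunit, Idh3a, had 4.89, 3.39 and 4.65 FPKM in untreated F_1, F_2, M_1 and 4.75, 5.30 and 5.10 FPKM in bezafibrate F_1, M_1 and M_2. The groups overlapped because untreated F_1 lay above bezafibrate F_1, and the difference was 0.20 (SE 0.160). Idh3b had 21.4 ± 0.805 and 20.7 ± 1.02 FPKM, and its highest value was 1.12 times its lowest, the narrowest span among the 33.

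Idh3g, the gamma subunit (X chromosome, 73778963 to 73786897, minus strand), was the member whose groups did not overlap. It had 20.4, 22.6 and 21.3 FPKM untreated and 17.3, 17.9 and 19.6 FPKM with bezafibrate. The gap between the groups was narrow, from 19.6 FPKM in bezafibrate M_2 to 20.4 FPKM in untreated F_1. The means were 21.4 ± 1.11 and 18.3 ± 1.18 FPKM, and the difference was -0.22 (SE 0.125, interval -0.51 to 0.07, unadjusted p = 0.122, adjusted p = 0.999 by limma). With FPKM rescaled to the same sum in every library (TPM), the difference was -0.11 and the groups overlapped. That rescaling also shifted the whole table: the median over all genes tested was 0.10 in place of -0.01, and 11 of the 33 members changed sign.

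The later steps of the cycle showed the same mixture. Ogdh, the E1 component of the 2-oxoglutarate dehydrogenase complex and the second most abundant member, had 34.0, 39.2 and 42.1 FPKM untreated and 40.6, 32.0 and 33.5 FPKM with bezafibrate. Dlst, the E2 component of the same complex, had 7.76 ± 1.04 and 7.78 ± 0.839 FPKM. Both had their highest values in the libraries that stood apart, untreated M_1 and bezafibrate F_1. Sucla2, the beta subunit of the ATP-forming succinyl-CoA synthetase, had 16.1, 13.0 and 12.3 FPKM untreated and 12.7, 11.8 and 12.7 FPKM with bezafibrate. Untreated F_1 was the single high value of Sucla2, and the difference was -0.14 (SE 0.143). Suclg1, the alpha subunit common to both forms of that enzyme, had 7.07, 5.86 and 5.61 FPKM untreated and 7.28, 5.98 and 7.43 FPKM with bezafibrate, with a difference of 0.14 (SE 0.150). Suclg2, the beta subunit of the GTP-forming enzyme, had 5.15 ± 1.21 and 4.96 ± 0.407 FPKM.

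Fumarase, Fh1, had 9.46 ± 0.755 FPKM untreated and 9.56 ± 1.36 with bezafibrate. Mdh2, the mitochondrial malate dehydrogenase that closes the cycle, was the third most abundant member, at 29.1, 31.2 and 30.8 FPKM untreated and 33.8, 31.8 and 29.5 FPKM with bezafibrate. Its groups overlapped, and its difference was 0.06 (SE 0.124).

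The isocitrate and aconitase enzymes outside the NAD route were not called either. Aco1, the cytosolic aconitase that doubles as an iron sensor, had 6.55 ± 1.29 FPKM untreated and 6.16 ± 1.45 with bezafibrate. Idh1, the cytosolic NADP-dependent isocitrate dehydrogenase, had 4.99 ± 1.76 and 4.99 ± 1.78 FPKM, equal means with a highest value 2.35 times the lowest. Idh2, its mitochondrial counterpart, had 10.9 ± 1.90 and 11.3 ± 1.18 FPKM.

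Among the 6 genes of pyruvate carboxylation, malic enzymes and the malate-aspartate route, 2 differences were above 0 and 4 below. Pcx, pyruvate carboxylase, which makes oxaloacetate from pyruvate, had 10.3 ± 1.34 FPKM untreated and 10.9 ± 0.446 with bezafibrate. Me1, the cytosolic NADP malic enzyme, was the second lowest member, with 2.95, 1.62 and 2.46 FPKM untreated and 2.09, 1.77 and 3.08 FPKM with bezafibrate. Me2, the mitochondrial NAD malic enzyme, had 4.11, 4.25 and 4.06 FPKM untreated and 2.63, 4.69 and 3.01 FPKM with bezafibrate. The untreated pools of Me2 lay close together while the bezafibrate pools lay on both sides of them, and the difference was -0.24 (SE 0.193).

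Mdh1, the cytosolic malate dehydrogenase, had 16.8, 12.7 and 15.2 FPKM untreated and 11.3, 18.6 and 23.8 FPKM with bezafibrate. The bezafibrate female pool was the lowest of the 6 and the bezafibrate male pools were the highest. The difference was 0.20 (SE 0.258), 0.48 without bezafibrate F_1, 0.05 with sex as a covariate and -0.03 without bezafibrate M_2. Got1 and Got2 encode the cytosolic and mitochondrial aspartate aminotransferases. Got1 had 2.99 ± 0.572 and 2.74 ± 0.341 FPKM, and Got2 had 14.0, 11.3 and 14.0 FPKM untreated and 11.3, 13.1 and 14.2 FPKM with bezafibrate.

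Glud1, glutamate dehydrogenase, which feeds glutamate into the cycle as 2-oxoglutarate, was the most abundant member. It had 48.2, 52.6 and 65.0 FPKM untreated and 62.0, 44.2 and 47.8 FPKM with bezafibrate. The groups overlapped, and the high values were those of untreated M_1 and bezafibrate F_1. The difference was -0.11 (SE 0.181). Acly, ATP citrate lyase, which splits exported citrate into acetyl-CoA for lipid synthesis and histone acetylation, had 22.4, 23.8 and 22.4 FPKM untreated and 18.2, 22.4 and 18.5 FPKM with bezafibrate. Bezafibrate F_1 and M_2 lay below every untreated library and bezafibrate M_1 lay level with the lower untreated pools. The means of Acly were 22.9 ± 0.802 and 19.7 ± 2.37 FPKM, with a difference of -0.21 (SE 0.135, interval -0.53 to 0.10).

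**Figure D4:**
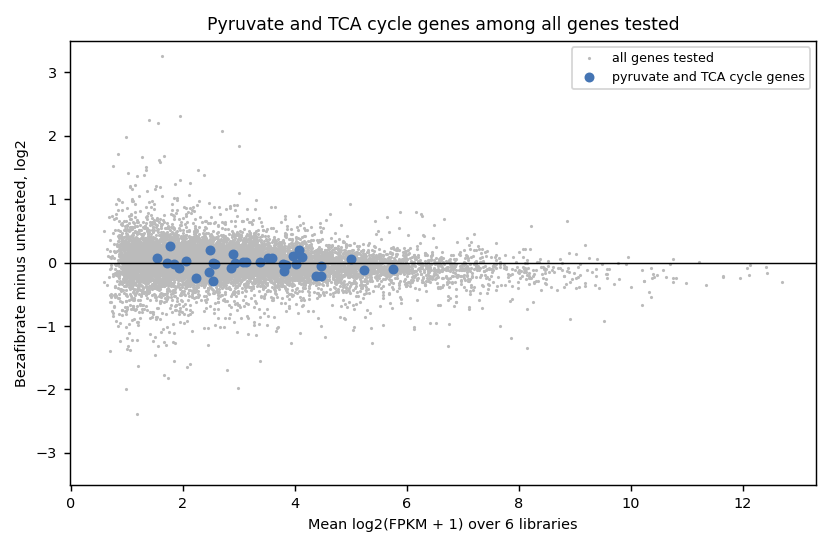
Difference between bezafibrate and untreated libraries (vertical axis, log2) against the mean log2(FPKM + 1) over the 6 libraries (horizontal axis) for the 11277 genes tested (grey) and the 33 pyruvate and TCA cycle genes (blue). The blue points lie within 0.28 of the zero line, with a median size of 0.0733 against 0.133 for all genes.

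The libraries that stood apart recurred at the ends of the range of some members. Untreated M_1 and bezafibrate F_1 held the 2 highest values for 5 of 33 members (Dlst, Glud1, Ogdh, Pdha1 and Pdk1), and the same held for 17.1% of all genes tested. They held the 2 lowest values for 3 members (Aco1, Fh1 and Pdhb), and for 14.9% of all genes. Each group held 1 of these libraries. In the untreated pools (F_1, F_2, M_1) the FPKM of the 33 members summed to 401, 393 and 409. In bezafibrate F_1, M_1 and M_2 they summed to 395, 379 and 399. These sums lay close together on the deposited scaling, and the most abundant members weigh most in them. The FPKM of all genes summed to 254277 in bezafibrate M_1, the lowest, and to 322934 in untreated M_1, the highest. As a share of all FPKM the libraries would rank in another order.

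Sex was compared as male minus female with treatment as a covariate, since both groups mixed the sexes. None of the 33 members was called by limma, and none had an unadjusted p under 0.05. Of all genes tested, 3 (0.0266%) were called and 331 (2.94%) had an unadjusted p under 0.05. The smallest member p was that of Mdh1 (difference 0.45, SE 0.240, unadjusted p = 0.107), whose male pools had 15.2 to 23.8 FPKM and whose female pools had 11.3 to 16.8 FPKM. Got2 (0.20, SE 0.157) and Pdhx (-0.20, SE 0.207) came next, with p of 0.252 and 0.365. Pdha1, Pdk3 and Idh3g lie on the X chromosome, and their sex differences were -0.09 (SE 0.184), 0.21 (SE 0.261) and 0.05 (SE 0.147). With 1 male pool among the untreated and 1 female pool among the bezafibrate libraries, sex and treatment overlap in part.

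Ratios of partner genes within a library do not depend on how libraries were scaled, and 12 were compared. In all 12 the untreated and bezafibrate values overlapped. The smallest exact permutation p was 0.2 (two-sided, floor 0.1), and every p adjusted over the 12 ratios was 1. The log2 differences ran from -0.39 for Dlat to Pdhx to 0.30 for Me1 to Me2. Sucla2 stood at 2.64 times Suclg2 (2.03 to 3.44 over the 6 libraries) and was the higher of the beta subunits in every library. Idh3g stood at 0.942 times Idh3b (0.793 to 1.03), while Idh3a stood at 0.223 times Idh3b (0.153 to 0.268). The cytosolic enzyme was below its mitochondrial counterpart in every library for Idh1 to Idh2 (mean ratio 0.448), Mdh1 to Mdh2 (0.534) and Got1 to Got2 (0.223). Me1 to Me2 had a mean ratio of 0.650 and was above 1 in a single library, bezafibrate M_2, at 1.02. The most variable ratio was Pdk1 to Pdk2, from 0.153 in untreated F_1 to 0.591 in untreated M_1.

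**Figure D5:**
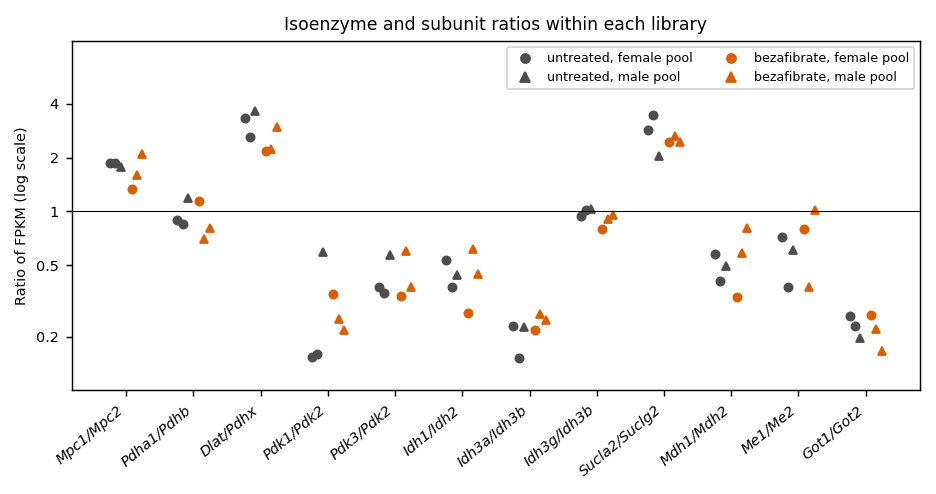
Ratio of FPKM (log axis) for 12 pairs of subunits or isoenzymes in each library, with grey for untreated, orange for bezafibrate, circles for female and triangles for male pools. Grey and orange values overlap for every pair, and Sucla2/Suclg2 stays above 1 while Got1/Got2, Mdh1/Mdh2 and Idh1/Idh2 stay below 1.

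Across the pathway the mean level per gene ran from 1.98 FPKM for Pdk1 to 53.3 FPKM for Glud1, with a median of 7.77 FPKM. Placed among all genes tested, the members ran from the 18.1 to the 93.3 percentile. Only 3 members had a mean over 30 FPKM (Glud1 at 53.3, Ogdh at 36.9 and Mdh2 at 31.0), and 5 had a mean under 3 FPKM (Pdk1, Me1, Pdhx, Mpc2 and Got1). Of the 32 neighbouring pairs in the order of means, 30 had overlapping ranges over the 6 libraries. The ranges of Glud1 over Ogdh and of Mdh2 over Acly did not overlap. In 3 further pairs the higher gene was higher within all 6 libraries, namely Ogdh over Mdh2, Got2 over Idh2 and Pcx over Fh1.

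The order depends on which length a gene is divided by. The table used the union of all annotated exons for 31 of the 33 members. For these 31 that length was 1.07 to 7.16 times the length of the principal transcript. The exceptions were Pcx (4637 bases, exon union 4753) and Me2 (2455 bases, exon union 7252). By the table's lengths, the ratio of Me1 to Me2 therefore set an exon union against a length shorter than the union. Per base of the principal transcript, Mdh2 led with 75.9 FPKM, ahead of Glud1 at 66.2, Ogdh at 48.8, Idh3b at 44.6 and Idh3g at 40.3. Mpc2 moved most, from 2.59 to 18.6 FPKM, since its exon union is 7344 bases and its principal transcript 1025 bases. The ratio of Mpc1 to Mpc2 turned with it, from a mean of 1.76 by the table's length to 0.534. The means of the other ratios named above kept their side of 1, with Sucla2 at 3.44 times Suclg2. Single libraries could change side: the highest ratio of Idh3g to Idh3b was 1.03 by the table's length and 0.990 per principal transcript. Me1 to Me2 in bezafibrate F_1 went from 0.797 to just above 1. In the comparison of bezafibrate with untreated libraries each gene is set against itself. There the length enters only through the filter at 1 FPKM and the 1 added before the log2, which weighs most on low members. With 0.1 added in place of 1, Pdhx stood at 0.36 in place of 0.26, no member changed sign and none was called. A fit with the principal transcript lengths was not run.

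Spread between pools differed widely between members. The highest library exceeded the lowest by under 1.5 times for 19 members and by over 2 times for 5, which were Pdk1 (2.85), Idh1 (2.35), Pdk2 (2.28), Pdp1 (2.24) and Mdh1 (2.11). Of these 5, 3 act on the PDH complex by phosphorylation or its reversal. At the other end, the within-group SD of Idh3b, Dlat, Mdh2 and Idh3g lay at the 1.47, 3.11, 3.12 and 3.49 percentile of all genes tested. Members had 105 to 5079 reads per library, and 8 had fewer than 200 reads in some library. The part of depth in the spread was not tested.

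Reads shared with other genes are a further limit for some members. Cutting each principal transcript into stretches of 75 bases, the read length, found none of them in another gene for 25 members. More than 5% were shared for 7 members. Mpc1 led with 37.0%, shared with 2 genes, of which Mpc1-ps alone held 24.3%. Next came Got2 (35.2%), Me1 (23.6%), Pdhb (19.9%), Suclg2 (16.0%) and Pdha1 (13.9%). Apart from Mpc1-ps, few reads were assigned to the gene that shared most with each of these: at most 11 for the partner of Got2, 2 for that of Me1, 8 for that of Pdhb, 13 for that of Pdha1 and 67 for that of Suclg2, in any library. Exons on the opposite strand overlapped more than 5% of the exon bases of Mpc1, Pdha1 and Got2, and whether the counting used strand is not given in the sources read.

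Promoters were searched because PPAR receptors bind a known motif. RefSeq promoters of GRCm38.p6 (windows that end just past each start) matched 30 of the 33 members by name. The direct repeat AGGTCANAGGTCA, read on both strands, was in none of the 30 and in 0.0481% of the 27025 genes with a promoter. With 1 mismatch allowed it was again in none of the 30, and in 0.644% of all genes. The ERR element TCAAGGTCA, which overlaps the half-site of that repeat, and the NRF1 palindrome GCGCATGCGC were also in none, against 0.466% and 1.07% of all genes. No match says only that these letters are not in these windows.

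Of 37 further genes of the pathway, 28 passed the filter, and limma called none. Their differences were above 0 for 15 and below 0 for 13, with a median of 0.01, and 1 of them, Pdk4, had an unadjusted p under 0.05, against 4.19% of all genes tested. The groups did not overlap for 2, Pdk4 and Glul, against 8.42% of all genes, so that neither count exceeded the background. Glul, glutamine synthetase, which turns glutamate into glutamine, had 451 ± 18.1 FPKM untreated and 501 ± 16.2 with bezafibrate, a difference of 0.15 that was not called (adjusted p = 0.999). Slc25a1, the citrate carrier encoded in the deleted interval and present in 1 copy in all libraries, had 14.5 ± 3.73 and 14.5 ± 1.98 FPKM, a difference of 0.03 (SE 0.196).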

How the data were processed

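The authors deposited 1 table of FPKM per gene, with gene lengths and positions. Per the labels' protocols, cDNA was made with SMART-Seq HT and libraries with Nextera XT, read single-end at 75 bases, and de-duplicated reads were mapped with Salmon. The submitters' processing notes name GRCm38. What annotation, strand setting and scaling were used was not given in the sources used here. For the untreated male library, the column differs in its number from the sample title, and was matched by the sample's description.

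FPKM times length fell on whole reads for 100% of values (tolerance 0.01 reads). These reads gave the depth and a limma-voom fit. Genes reaching 1 FPKM in 3 or more libraries were fitted with limma 3.58.1 in R 4.3.3 (trend, two-sided) on log2(FPKM + 1), a scale that understates changes of low genes, with Benjamini-Hochberg adjustment over all 11277 genes. The script was tested on simulated data. P-values measure the spread between pools of 3 brains. Lengths, transcripts and exon overlaps came from GENCODE vM21 and promoters from RefSeq. The members, lists and tests were chosen with earlier results of these data known. Values per library are printed for the carrier, the PDH complex and its regulators, the 8 smallest treatment p, the 3 smallest sex p, members without overlap, and the 3 highest and lowest members; of other pathway genes, those without overlap and a few set by name are given, and 1 gene set by name is not reported here.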

Additional observations from a re-analysis of the deposited data

How the results depend on the processing

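The treatment and sex fits were repeated under other pseudocounts (0.1 and 0.5), filters, scalings, weights, covariates and sets of libraries. In the 17 other settings of the treatment fit no member was called, and the smallest adjusted member p was 0.480, with array weights. Of 553 member differences, 543 moved by less than the within-group SD and 10 by more, and none of 84 ratio values moved by more. That bound is wide: the SD ran from 0.0603 (Idh3b) to 0.438 (Idh1), against a median size of difference of 0.0733. A change of sign can thus fall inside it, and a change of filter alone leaves a member's difference as it was. The sign changed for 5 to 11 members with 1 library left out, 5 with sex as a covariate and 8 with the replicate block. The median over members ran from -0.09 with the replicate block to 0.10 with TPM, where the median of all genes was 0.0997 and 11 members changed sign. An unadjusted limma p under 0.05 came up for Idh3a with array weights (0.36) and for Me2 without bezafibrate M_1 (-0.43). It also came up for Mdh1 without bezafibrate F_1 (0.48) and without both libraries that stood apart (0.50). Of all genes, 10.2% passed that bound with array weights and 3.18% without bezafibrate M_1. Without bezafibrate F_1 it was 8.71%, and without both libraries 8.41%. Without bezafibrate F_1 all bezafibrate pools were male, and without both libraries treatment and sex coincided. These 2 values of Mdh1 therefore cannot be told apart from a sex difference.

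Members without overlap numbered 2 with TPM (Cs and Mdh2) and 0 with quantile scaling. They numbered 2 to 8 with 1 library left out, 8 of them without bezafibrate F_1, and 9 with untreated M_1 and bezafibrate F_1 both left out, settings in which 15.2% to 38.0% of all genes did not overlap. Removing libraries cannot create overlap, so these counts say nothing of stability. All genes called for treatment numbered 0 with limma-voom, 0 without both of those libraries, and 0 to 3 with 1 library left out (3 without bezafibrate F_1, 0 without bezafibrate M_1 or M_2). For sex they numbered 1 to 4 with 1 library left out, with 1 without bezafibrate M_1 or M_2. With the replicate block, which uses F_1 and M_1 as pairs, genes called numbered 0 and Pdhx stood at 0.52. Libraries of the same name did not deviate together (correlations -0.36 and -0.30), so the block is not taken as pairing. The sex fit without both libraries that stood apart could not be fitted, since treatment and sex then coincide. Depth limits the low members, of which 8 had fewer than 200 reads in some library.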
